A study of Mus musculus with 12 samples.

Results

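The 7 genes described here, Ly6a, Ly6c1, Ly6c2, Ly6d, Ly6e, Ly6k and Ly6g6c, were taken by symbol from the 35521 genes in the deposited count files. Ly6a encodes SCA1, the surface antigen by which the study followed its cancer cells, and the other 6 are relatives of it. RNA was sequenced from 4T1, a mammary carcinoma cell line of BALB/c mouse origin, in 3 groups of 4 libraries. Tu-Gr1+CD11b+-primed 4T1 cells (label 4T1_MDSC_T) had been cocultured for 48 h with Gr1+ cells from 4T1 tumors, and Spl-Gr1+CD11b+-primed 4T1 cells (label 4T1_MDSC_S) with Gr1+ cells from the spleen of tumor-bearing BALB/c mice. The immune cells were collected by magnetic separation at day 21 after tumor cell injection per the labels, while the methods of the study name a slightly later day, and a membrane with 0.4 µm pores kept them apart from the cancer cells. Parental 4T1 cells (label 4T1) had no immune cells across the membrane. All groups were the same line without a genetic change, the cells were lysed in the well without a further sort, and the labels do not say whether immune cells of several mice were pooled or whether the 4 libraries of a group came from separate cultures, so p-values measure the spread between these libraries.

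Ly6 genes encode small cysteine-rich proteins, most of which are held on the outer face of the cell membrane by a glycosylphosphatidylinositol anchor. Most mouse members lie side by side on chromosome 15, and several serve as markers in flow cytometry: SCA1 marks blood stem cells and some progenitors, and Ly6C and Ly6G are the antigens that the Gr1 antibody binds on monocytes and granulocytes. Ly6e is broadly expressed and, like Ly6a, known as an interferon-inducible gene.

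In GRCm38 with the GENCODE M21 annotation, 6 of the 7 genes lay on chromosome 15. In order along the chromosome they were Ly6d (chr15:74762056-74763620), Ly6k (chr15:74796874-74799986), Ly6e (chr15:74955051-74959905), Ly6a (chr15:74994877-74998031), Ly6c1 (chr15:75044018-75048830) and Ly6c2 (chr15:75108158-75111970). Ly6e was on the plus strand and the other 5 on the minus strand. Ly6g6c stood apart on chromosome 17 (chr17:35065388-35070050, plus strand), within the major histocompatibility complex.

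Ly6c1 and Ly6c2 are near copies of each other, which bears on how reads could be divided between them. The coding sequences of Ly6c1-201 and Ly6c2-201 were each 396 bases long and were identical at 387 positions, 97.7%. Ly6a-201 was 82.0% identical to Ly6c1-201 and 81.7% to Ly6c2-201 over the alignment, whereas Ly6e-201 was 52.6% identical to Ly6a-201. The first 270 coding bases of the Ly6c pair, from the GENCODE transcript sequences, are shown to let a reader see how little separates them, with the 7 of 9 differing bases that fall there in capitals.
Ly6c1-201: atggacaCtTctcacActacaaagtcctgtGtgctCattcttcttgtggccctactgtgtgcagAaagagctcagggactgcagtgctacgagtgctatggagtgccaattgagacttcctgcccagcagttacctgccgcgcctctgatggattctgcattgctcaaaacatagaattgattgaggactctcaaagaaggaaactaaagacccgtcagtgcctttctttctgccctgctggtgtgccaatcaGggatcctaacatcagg
Ly6c2-201: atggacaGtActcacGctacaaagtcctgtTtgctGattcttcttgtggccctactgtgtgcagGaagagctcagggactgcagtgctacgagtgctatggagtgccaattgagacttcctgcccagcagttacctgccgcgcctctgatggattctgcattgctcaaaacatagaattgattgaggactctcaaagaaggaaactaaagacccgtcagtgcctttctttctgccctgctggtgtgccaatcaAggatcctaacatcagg
Of all 31-base words in the annotated Ly6c1 transcripts, 46.8% also occurred in transcripts of other genes, foremost Ly6c2 (33.0%) and Ly6a (15.7%). The same share was 31.9% for Ly6a, which had 21.9% of its words in common with Ly6c1. It was 23.7% for Ly6c2 and 0.373% for Ly6e, so that Ly6e reads were the least open to confusion with another gene among the 4 expressed members. Most Ly6c2 words, 2627 of 2714, occur in Ly6c2-202, a transcript that keeps an intron, so the Ly6c2 share need not hold for its coding transcripts. The reference is a C57BL/6J genome and 4T1 is of BALB/c origin. Any effect of strain differences on the assignment of reads to these genes was not tested.

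RefSeq promoter sequences (GRCm38.p6) were given for 3 members, Ly6c1, Ly6c2 and Ly6g6c. The 250 bases upstream of the most distal start of Ly6c1 (chr15:75048838-75049087, minus strand) and of Ly6c2 (chr15:75111972-75112221, minus strand) are shown because these neighbors were both highest in the Tu-Gr1+CD11b+-primed cells. Capitals mark stretches of at least 12 bases that occur in both.
Ly6c1 promoter: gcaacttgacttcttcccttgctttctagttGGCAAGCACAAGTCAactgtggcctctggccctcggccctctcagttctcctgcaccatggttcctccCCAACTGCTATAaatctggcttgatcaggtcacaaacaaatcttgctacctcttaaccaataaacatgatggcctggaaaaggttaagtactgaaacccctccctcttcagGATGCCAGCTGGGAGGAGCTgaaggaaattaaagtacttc
Ly6c2 promoter: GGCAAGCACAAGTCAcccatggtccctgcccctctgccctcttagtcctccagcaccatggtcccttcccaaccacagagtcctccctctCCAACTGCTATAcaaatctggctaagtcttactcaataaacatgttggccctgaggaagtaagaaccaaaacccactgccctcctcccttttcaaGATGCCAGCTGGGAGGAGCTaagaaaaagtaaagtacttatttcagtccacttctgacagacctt
Shared stretches made up 18.8% of each sequence, and the pair was 57.7% identical over the alignment, well below the identity of the coding parts. Words of an interferon-response element (GAAANNGAA or, on the other strand, TTCNNTTTC) and of a STAT site (TTCNNNGAA, which reads the same on both strands) were searched in the 300-base promoters. Neither was in any of the 5 member promoters, and they occurred in 8.56% and 8.30% of all 32851 promoters. At such shares, none among 5 promoters does not set these genes apart from others, and no promoter of Ly6a or Ly6e was searched.

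Libraries held 24566183 to 31637755 estimated reads, with a median of 27277534. Levels below are in CPM, the share of a library's reads, scaled by the trimmed mean of M values, and 3 counts, taken as the floor of detection, corresponded to 0.0942 to 0.126 CPM. The labels were checked against markers: the epithelial genes Epcam, Cdh1, Krt8, Krt18, Krt19 and Krt7 were present at 924 counts or more in every library, whereas the basal keratins of the list were low, with Krt14 at 7 to 14 counts and Krt5 at 0 in all 12 libraries. Of the 7 tested epithelial markers, 0 were called between the primed groups by the edgeR test, and 5 had an unadjusted p under 0.05 there. Against parental cells, 4 were lower in Tu-Gr1+CD11b+-primed cells (Cdh1, Krt7, Krt8 and Krt18), where 28% of all genes were called lower. In Spl-Gr1+CD11b+-primed cells 3 were lower (Krt7, Krt8 and Krt18), where 22.5% were, and 1 was higher (Epcam), where 25.7% were. Krt8 had a mean of 871 CPM in Tu-Gr1+CD11b+-primed, 1071 in Spl-Gr1+CD11b+-primed and 1491 in parental cells. Of the 5 defining myeloid markers, Ptprc, Itgam, Spi1 and Csf3r had at most 10 counts in any library, and Cxcr2 had 41 to 96 in all 3 groups, parental cells included.

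The 3 members that could be tested across the transcriptome, Ly6a, Ly6c1 and Ly6e, were higher in Tu-Gr1+CD11b+-primed cells than in both other groups, and none of them was called between Spl-Gr1+CD11b+-primed and parental cells by the same test. Of all genes tested, 4.66% were called higher between the primed groups and 31.2% between Tu-Gr1+CD11b+-primed and parental cells. Ly6c2 was highest in the Tu-Gr1+CD11b+-primed cells too, at a few counts per library. Ly6d and Ly6k had 0 counts in all 12 libraries, and Ly6g6c stayed at 1 to 8. The study picked Ly6a, Ly6c1 and Ly6e for its own gene lists on these same libraries, so their direction here is not independent evidence. In bulk RNA, more cells with a transcript and more transcript per cell cannot be told apart.

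Ly6a had the highest fold change of the 3 tested members in both comparisons of the Tu-Gr1+CD11b+-primed cells. Its counts in the 4 Tu-Gr1+CD11b+-primed libraries were 353, 278, 278 and 90, those in the Spl-Gr1+CD11b+-primed libraries 42, 36, 36 and 36, and those in parental 4T1 16, 16, 24 and 25. Mean levels were 9.04 ± 4.11 CPM (SD, n = 4), 1.30 ± 0.0297 and 0.801 ± 0.238. No Tu-Gr1+CD11b+-primed library overlapped with another group, although replicate 4, at 3.12 CPM, was well under the other 3 of its group at 9.72 to 12.5. Against the Spl-Gr1+CD11b+-primed cells the log2 fold change was 2.80 (SE 0.34, adjusted p = 0.000154, edgeR quasi-likelihood test with Benjamini-Hochberg adjustment over 12555 genes), a 6.94-fold higher level. Against parental cells it was 3.50 (SE 0.37, edgeR adjusted p = 4.4e-06), 11.3-fold.

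Ly6c1, one of the pair of genes for the Ly6C antigen of monocytes, followed at lower counts. The Tu-Gr1+CD11b+-primed libraries had 93, 52, 60 and 31 counts, the Spl-Gr1+CD11b+-primed libraries 16, 18, 12 and 18, and the parental libraries 12, 10, 9 and 5. All 4 Tu-Gr1+CD11b+-primed libraries were above all others, again with replicate 4 lowest. The log2 fold change was 1.93 (SE 0.32, edgeR adjusted p = 0.00169) against the Spl-Gr1+CD11b+-primed cells and 2.59 (SE 0.35, edgeR adjusted p = 2.81e-05) against parental cells.

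Ly6c2, the other gene for Ly6C, had 15, 15, 16 and 8 counts in the Tu-Gr1+CD11b+-primed libraries. It had 6, 2, 2 and 2 in the Spl-Gr1+CD11b+-primed and 1, 2, 1 and 2 in the parental libraries, mostly under the floor. The gene's counts did not overlap between Tu-Gr1+CD11b+-primed cells and either other group. Of these, 5.7, 4, 4 and 4.9 reads in the Tu-Gr1+CD11b+-primed libraries were assigned to Ly6c2-202, a transcript that keeps an intron. Ly6c2-204, the only coding transcript with reads, had 9.4, 11.1, 12.4 and 3 there. It had 4, 0.9, 0 and 2 in the Spl-Gr1+CD11b+-primed libraries, an overlap, and 1.1, 2.2, 1.1 and 2 in the parental. Ly6c2 as a gene fell below the filter on low counts and was left out of the test across all genes. Its summed level was 4.67 times that of the Spl-Gr1+CD11b+-primed cells (95% counting interval 2.47 to 9.60) and 8.31 times that of parental cells (3.58 to 23.6), where the interval covers counting error only. A 2-sided exact permutation test over libraries gave p = 0.0286 for each, the smallest value 4 against 4 libraries allow, and an adjusted p of 0.1 over the 21 such tests made here. When no filter was applied, the edgeR test also called Ly6c2 higher, with adjusted p = 0.0112 and 0.000263.
The reads of the Ly6c pair were added, which removes only the division between these 2 genes. Ly6c1 also shared 15.7% of its 31-base words with Ly6a, the more abundant gene, and any reads exchanged with it remain in the sum. The sum was 1.35 to 3.83 CPM in the Tu-Gr1+CD11b+-primed libraries, 0.508 to 0.726 in the Spl-Gr1+CD11b+-primed and 0.280 to 0.494 in the parental libraries, so that the 3 groups were apart on the sum as well. Ly6c2 took 19.5% ± 3.80, 15.4% ± 8.18 and 15.7% ± 9.37 of these reads (SD, n = 4), with overlapping ranges.

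Ly6e was the most abundant member. Its counts were 2042, 1304, 1148 and 607 in the Tu-Gr1+CD11b+-primed libraries, 452, 381, 416 and 400 in the Spl-Gr1+CD11b+-primed and 488, 389, 468 and 459 in the parental libraries. Every Tu-Gr1+CD11b+-primed library was above every other library, and replicate 4 was the lowest of the 4 here also, at 21.1 CPM against 40.1 to 72.5. The log2 fold change was 1.69 (SE 0.26, edgeR adjusted p = 0.000854) against the Spl-Gr1+CD11b+-primed cells and 1.39 (SE 0.25, edgeR adjusted p = 0.000371) against parental cells.

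**Figure D1:**
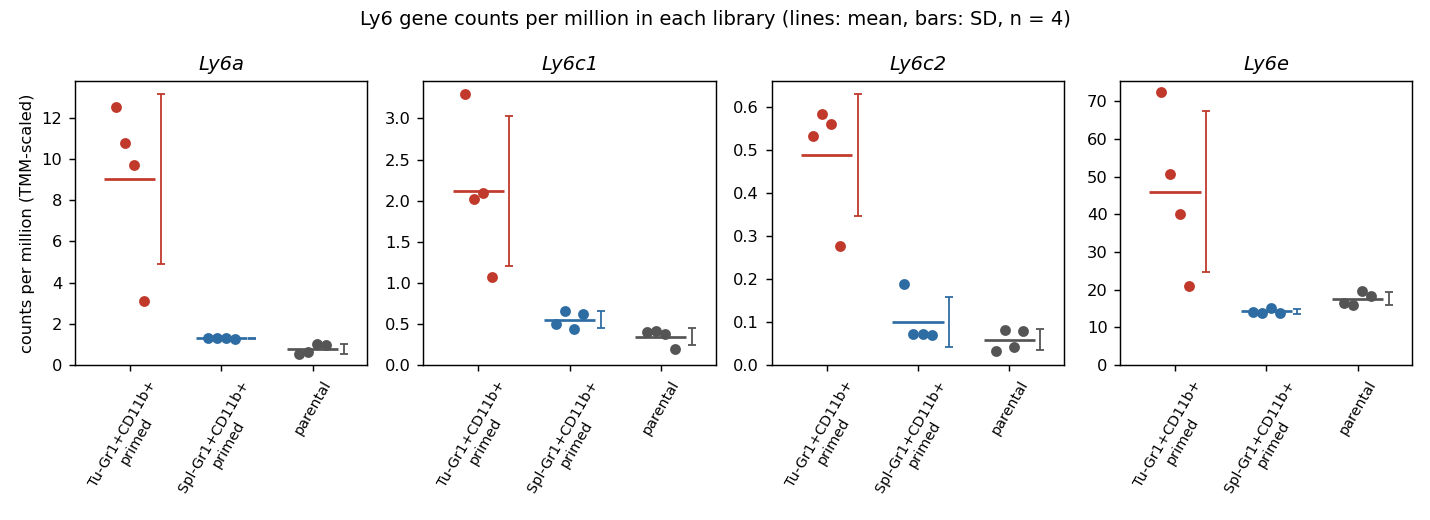
TMM-scaled CPM (vertical axis, linear, from 0, a separate scale for each gene) of Ly6a, Ly6c1, Ly6c2 and Ly6e in the 12 libraries, by group (horizontal axis). Points are libraries in the order of their replicate number, lines are group means and bars the SD; the Tu-Gr1+CD11b+-primed libraries lie above all others for each gene and replicate 4 is the lowest of them.

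In all, the edgeR test called 3 of the 3 tested members higher between Tu-Gr1+CD11b+-primed and Spl-Gr1+CD11b+-primed cells, and their median log2 fold change was 1.93 against -0.01 over all genes. Against parental cells 3 of 3 were called higher as well, and the median was 2.59 against 0.02. Every Tu-Gr1+CD11b+-primed library exceeded all 4 Spl-Gr1+CD11b+-primed libraries in 8.51% of all genes and all 4 parental libraries in 28.6%. Leaving out each of the 12 libraries in turn ended none of these 6 calls. Both comparisons share the Tu-Gr1+CD11b+-primed libraries, and the remaining 4 of the 7 members did not pass the filter.

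Ratios between members were compared within libraries. The number of Ly6a reads per Ly6e read does not depend on the scaling of a library, and was 0.148 to 0.242 in Tu-Gr1+CD11b+-primed, 0.0865 to 0.0945 in Spl-Gr1+CD11b+-primed and 0.0328 to 0.0545 in parental cells. The 3 groups did not overlap on this ratio, with an exact permutation p of 0.0286 and an adjusted p of 0.1 for each pair. Ly6c1 reads per Ly6a read were 0.187 to 0.344, 0.333 to 0.500 and 0.200 to 0.750, and the ranges overlapped (exact permutation p = 0.0571, adjusted 0.171, for Tu-Gr1+CD11b+-primed against Spl-Gr1+CD11b+-primed).

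Between Spl-Gr1+CD11b+-primed and parental cells 0 of the 3 tested members were called by the edgeR test, where 25.7% of all genes were called higher and 22.5% lower. None had an unadjusted p under 0.05, and neither limma-voom nor DESeq2 called any. The log2 fold change was 0.71 (SE 0.42, edgeR adjusted p = 0.185) for Ly6a, 0.66 (SE 0.39, edgeR adjusted p = 0.176) for Ly6c1 and -0.30 (SE 0.26, edgeR adjusted p = 0.361) for Ly6e. The 95% intervals of these log2 differences ran from -0.13 to 1.54, from -0.10 to 1.42 and from -0.82 to 0.21, so that the data do not show equal levels either.
The libraries themselves did not overlap in these groups. All 4 Spl-Gr1+CD11b+-primed libraries were above all 4 parental libraries for Ly6a (1.25 to 1.32 against 0.539 to 1.01 CPM) and for Ly6c1 (0.436 to 0.654 against 0.200 to 0.412), as were 21.3% of all genes, and all 4 were below for Ly6e (13.8 to 15.1 against 16.0 to 19.6), as were 18.3%. In a fit of only these 8 libraries, which leaves out the widely spread Tu-Gr1+CD11b+-primed group, Ly6a passed as higher (edgeR adjusted p = 0.0343) and Ly6e as lower (edgeR adjusted p = 0.0106). Leaving out Tu-Gr1+CD11b+-primed replicate 4 alone also made Ly6a pass (edgeR adjusted p = 0.0125).

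**Figure D2:**
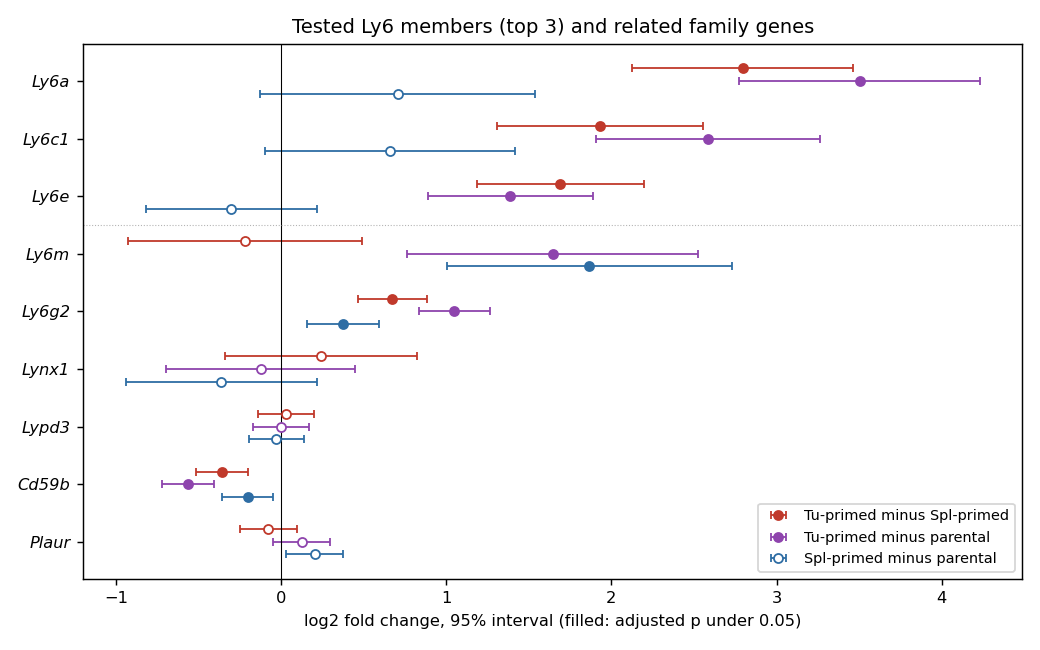
Log2 fold changes (horizontal axis) with 95% intervals (normal approximation from the SE) for the 3 tested members above the dotted line and 6 tested family relatives below it, in the 3 comparisons. Filled points had an adjusted p under 0.05 in the edgeR test; Ly6a, Ly6c1 and Ly6e lie right of 0 in both comparisons of the Tu-Gr1+CD11b+-primed cells, and their points for Spl-Gr1+CD11b+-primed against parental cells are open.

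To set the genes beside each other, reads were divided by the effective length of their transcripts and given as TMM-scaled RPKM. In the Tu-Gr1+CD11b+-primed cells the order of these per-length levels was Ly6e (58.5 ± 27.5, SD, n = 4), Ly6a (14.6 ± 6.92), Ly6c1 (4.40 ± 2.14), Ly6c2 (1.2 ± 0.531) and Ly6g6c (0.136 ± 0.0174). Ly6a and Ly6c1 overlapped in range there, at 4.74 to 20.6 and 1.83 to 7.01, and the other neighbors in the order did not. In Spl-Gr1+CD11b+-primed cells the order of the first 4 was kept, at 18.6 ± 1.36, 2.29 ± 0.370, 1.08 ± 0.401 and 0.217 ± 0.183, and Ly6c2 could not be told from Ly6g6c (0.203 ± 0.222). In parental cells Ly6e stood at 22.7 ± 2.07 and Ly6a at 1.30 ± 0.397, which overlapped in range with Ly6c1 at 0.815 ± 0.408. Ly6g6c was at 2, 1, 3 and 2 counts in Tu-Gr1+CD11b+-primed, 3, 8, 1 and 2 in Spl-Gr1+CD11b+-primed and 4, 1, 3 and 2 in parental cells. Ly6d, known as a marker of early B-lymphoid and squamous epithelial cells, and Ly6k, known from testis, were not detected at this depth, where a count of 0 allows up to 0.0942 to 0.126 CPM.

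The 7 genes had 39 annotated transcripts, of which 30 held reads in some library and 8 passed the filter. Ly6e reads were mostly assigned to the same transcript everywhere, Ly6e-215. Of the 1092 sequence words of Ly6e-215, 0 were in no other listed transcript, so this assignment depends on how reads were divided among transcripts. Ly6e-215, of 1122 bases, led in 12 of 12 libraries with 85.7% to 94.0% of the gene's reads. Its estimated reads were 1809.3, 1153.9, 988.1 and 554.5 in Tu-Gr1+CD11b+-primed, 387.3, 343.9, 384.7 and 346.7 in Spl-Gr1+CD11b+-primed and 441.2, 334.8, 419.5 and 431.2 in parental libraries. The first group lay above both others. Ly6e-215 was called higher against Spl-Gr1+CD11b+-primed cells, at a log2 fold change of 1.68 (SE 0.28, edgeR adjusted p = 0.025 over 38355 transcripts), where 0.493% of transcripts were called higher. The call was lost in 11 of 20 alternatives, with the direction kept, among them without Tu-Gr1+CD11b+-primed replicate 2 or 3 (edgeR adjusted p = 0.0956 and 0.0612), without any 1 of the Spl-Gr1+CD11b+-primed replicates (0.0679 to 0.105) and without parental replicate 1 (0.0505). It was called against parental cells too, at 1.26 (SE 0.28, edgeR adjusted p = 0.00613), where 18% were. Between Spl-Gr1+CD11b+-primed and parental cells 26.2% of transcripts were called and 0 of the 8 of the members by the edgeR test. Ly6a-205 alone of these had an unadjusted p under 0.05, and limma-voom called 0. The share of Ly6e reads on Ly6e-215 was 88.6% ± 2.16, 88.8% ± 3.16 and 90.01% ± 3.24 (SD, n = 4) in the 3 groups. Transcripts that keep an intron took 1.92% ± 0.983, 1.34% ± 1.71 and 0.430% ± 0.473 of Ly6e reads; all 4 Tu-Gr1+CD11b+-primed libraries were above the parental ones (exact permutation p = 0.0286, adjusted p = 0.1).

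Ly6a reads, in contrast, were divided differently from library to library. Ly6a-202 led in 7 libraries, Ly6a-203 and Ly6a-205 in 2 each and Ly6a-204 in 1, and libraries of the same group differed among themselves. The 3 Ly6a transcripts that passed the filter were Ly6a-202, Ly6a-203 and Ly6a-205. Of the 31-base words of Ly6a-202 and Ly6a-203, 0 were in no other listed transcript, and 1 word was private to Ly6a-205, so few reads can tell them apart. Ly6e-215 had 0 private words as well, so the steadier division of Ly6e reads does not show that its transcripts were better told apart. Ly6a-205 had 98.3, 151.1, 57.4 and 0.0 reads in Tu-Gr1+CD11b+-primed libraries, 7.1, 19.9, 6.6 and 0.0 in Spl-Gr1+CD11b+-primed and 0.0 in all parental libraries, and it was called higher against parental cells (edgeR adjusted p = 0.0198). No fold is given, since the parental 0 depends on how few Ly6a reads were divided among transcripts and replicate 4 of the Tu-Gr1+CD11b+-primed libraries was at 0 as well. Limma-voom did not call it (adjusted p = 0.405). The leading transcript of Ly6c1 changed less often. Ly6c1-202 led in 10 libraries, all parental ones among them, and Ly6c1-201 in 2, which were replicate 2 of each primed group. The test of transcripts does not contain the error of assigning reads among transcripts of one gene.

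**Figure D3:**
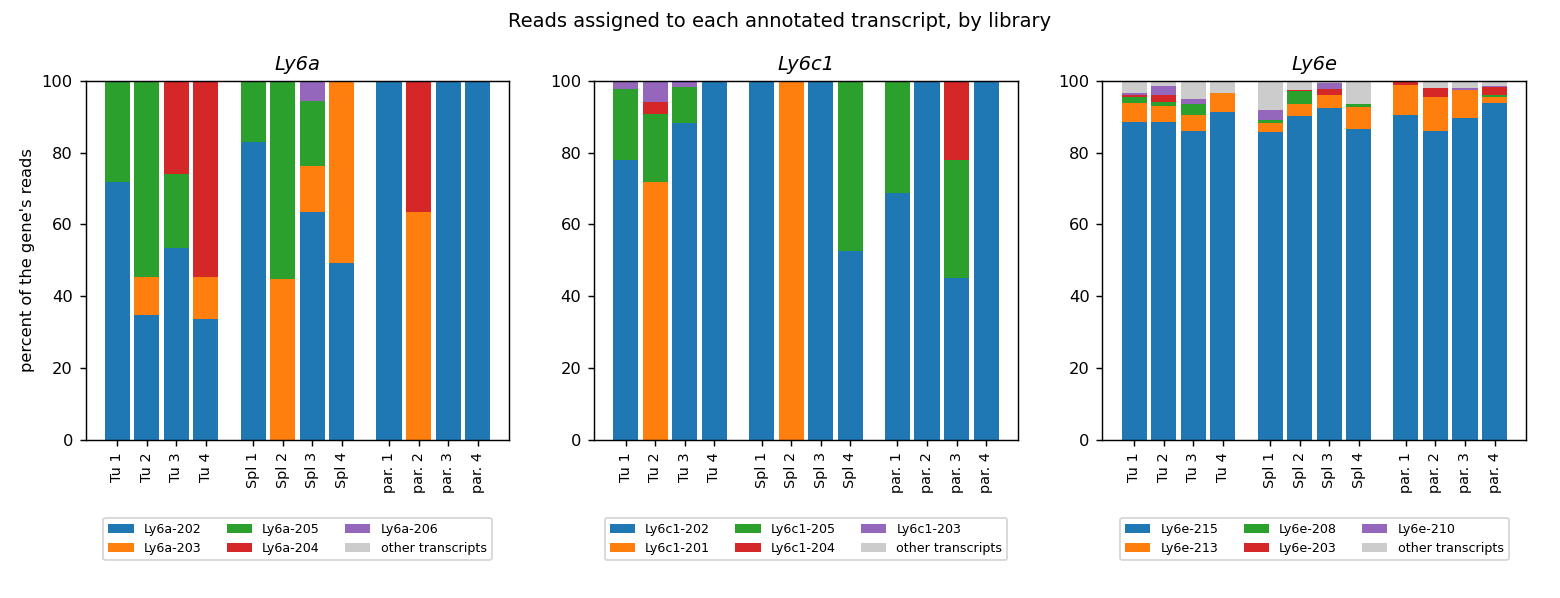
Percent of the reads of Ly6a, Ly6c1 and Ly6e (vertical axis) assigned to each annotated transcript in the 12 libraries (horizontal axis; Tu, Tu-Gr1+CD11b+-primed; Spl, Spl-Gr1+CD11b+-primed; par., parental). Colors are the 5 transcripts with the highest mean share of each gene and grey the rest. Ly6e-215 takes at least 85.7% of Ly6e reads in every library. The leading transcript of Ly6a changes between libraries within every group, and that of Ly6c1 within the primed groups only.

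The wider Ly6/uPAR family was taken as a list of 36 further genes, of which 35 were in the files and 6 passed the filter: Ly6m, Ly6g2, Lynx1, Lypd3, Cd59b and Plaur. Between the primed groups the edgeR test called 1 of the 6 higher and 1 lower, and the median log2 fold change was -0.03. Of all genes, it called 4.66% higher and 2.97% lower there. Ly6g2 is the RefSeq name of the gene at the place annotated as BC025446 (chr15:75216376-75222661, plus strand) and was matched by position after its values were seen. It had 565, 474, 505 and 395 counts in the Tu-Gr1+CD11b+-primed libraries, 335, 280, 343 and 306 in the Spl-Gr1+CD11b+-primed and 272, 206, 194 and 198 in the parental libraries, and the 3 groups were apart. It was called higher in each step, by 0.67 (SE 0.11, edgeR adjusted p = 0.00118) on the log2 scale between the primed groups, by 1.05 (SE 0.11, edgeR adjusted p = 3.91e-06) between Tu-Gr1+CD11b+-primed and parental cells and by 0.38 (SE 0.11, edgeR adjusted p = 0.0131) between Spl-Gr1+CD11b+-primed and parental cells. The last call was not made by DESeq2 with length offsets (adjusted p = 0.144) or in the authors' normalized table (limma, adjusted p = 0.206). Per length it lay at 18.0 ± 2.58 in the Tu-Gr1+CD11b+-primed cells, in the range of Ly6a, and at 8.78 ± 0.840 in parental cells, above it. Of all genes, 4.66%, 31.2% and 25.7% were called higher in these 3 comparisons, in the order given. In the same order, 8.51%, 28.6% and 21.3% of all genes had every library of the first group above every library of the second.
Ly6m, annotated as 2010109I03Rik (chr15:74876987-74897021, minus strand), had another pattern. It had 14, 7, 22 and 13 counts in Tu-Gr1+CD11b+-primed, 11, 15, 21 and 20 in Spl-Gr1+CD11b+-primed and 2, 6, 5 and 3 in parental libraries. Both primed groups were above parental cells and overlapped with each other. The log2 fold changes against parental cells were 1.65 (SE 0.45, edgeR adjusted p = 0.00613) and 1.87 (SE 0.44, edgeR adjusted p = 0.00332), and the difference between the primed groups was -0.22 (SE 0.36, edgeR adjusted p = 0.77).
Cd59b, which encodes an inhibitor of the complement membrane attack complex, moved the other way, with CPM of 56.5 ± 1.74, 72.5 ± 7.01 and 83.5 ± 8.65 (n = 4, SD) for Tu-Gr1+CD11b+-primed, Spl-Gr1+CD11b+-primed and parental cells. It was lower in Tu-Gr1+CD11b+-primed cells than in both others, as were 2.97% and 28% of all genes in the respective comparisons (log2 fold change -0.36, edgeR adjusted p = 0.0128, and -0.56, edgeR adjusted p = 4.49e-05). Its call between Spl-Gr1+CD11b+-primed and parental cells (-0.20, edgeR adjusted p = 0.0464) was lost in 17 of 24 alternatives, 10 of which left out 1 library (edgeR adjusted p = 0.0529 to 0.145). Lynx1, Lypd3 and Plaur, the last of which encodes the urokinase receptor, were called in none of the comparisons. Of the 29 relatives that were not tested 16 had 0 counts in every library, and Ly6g, the granulocyte antigen, had at most 3.

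Genes whose annotated lower coordinate lay within 100000 bases of that of a member numbered 58, and 16 of them were tested. On chromosome 15 the tested neighbors were 4, Jrk, Them6, Lynx1 and Ly6m, and 0 of these 4 were called between the primed groups by the edgeR test. Them6 alone of these had an unadjusted p under 0.05, with a log2 fold change of -0.70 (SE 0.21, edgeR adjusted p = 0.064). Jrk, Them6 and Lynx1 lay within this distance of Ly6d, and Ly6m of Ly6e. No tested gene outside the members lay within it of Ly6a, Ly6c1 or Ly6c2, so the genes beside these were not examined. Ly6g2 lay just beyond it from Ly6c2. Of the 12 tested neighbors of Ly6g6c on chromosome 17, Lsm2, an RNA-processing subunit, was called lower (-0.25, SE 0.07, edgeR adjusted p = 0.0402), a call lost in 15 of 24 alternatives, 8 of which left out 1 library (edgeR adjusted p = 0.0542 to 0.139). Compared with parental cells, the test called 4 of the 16 neighbors higher and 7 lower after priming with tumor-derived cells, where 31.2% of all genes were called higher and 28% lower. After priming with spleen-derived cells it called 3 higher and 4 lower, where 25.7% and 22.5% of all genes were. The median log2 fold changes of the neighbors were -0.13 and -0.08, against 0.02 over all genes in both.

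**Figure D4:**
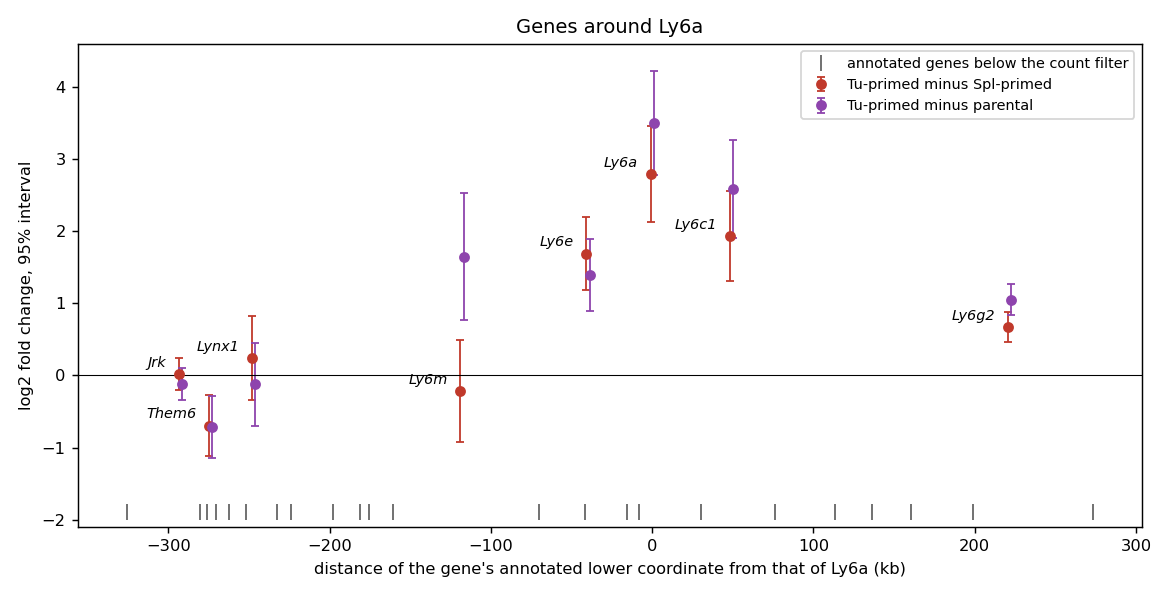
Log2 fold change with 95% interval (normal approximation from the SE, vertical axis) of tested genes on chromosome 15 against the distance of their annotated lower coordinate from that of Ly6a in kb (horizontal axis), for Tu-Gr1+CD11b+-primed cells minus both other groups. Ticks mark annotated genes below the count filter; Ly6e, Ly6a, Ly6c1 and Ly6g2 lie above 0 in both comparisons, Jrk, Them6 and Lynx1 lie at or below 0.24, and Ly6m lies above 0 against parental cells and at -0.22 against Spl-Gr1+CD11b+-primed cells.

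Over the 12 libraries the 5 genes whose log2 CPM ran closest to that of Ly6a by Pearson correlation were Trim21 (r = 0.989), a cytosolic antibody receptor and ubiquitin ligase, Phf11d (0.987), Casp4 (0.987), the intracellular caspase that senses lipopolysaccharide, and Ifi204 (0.986) and Ifi202b (0.985), members of the interferon-activated p200 family. The 12 points fall into 3 groups and share library and depth, so r holds both the group pattern and the spread within groups. It is given without a test. The CPM of Trim21 was 19.1 ± 4.31, 9.87 ± 0.549 and 7.91 ± 0.792 (n = 4, SD) for Tu-Gr1+CD11b+-primed, Spl-Gr1+CD11b+-primed and parental cells. Phf11d was at 17.8 ± 8.84, 2.02 ± 0.264 and 1.51 ± 0.303 CPM, the steepest of the 5. Among the family, r with Ly6a was 0.948 for Ly6g2, 0.942 for Ly6c1, 0.911 for Ly6e and -0.89 for Cd59b, and ranks among 12554 genes were 86, 100, 180 and 12474. The remaining tested relatives lay in between, with r of 0.450 for Ly6m, 0.169 for Lynx1, 0.0639 for Plaur and -0.152 for Lypd3. Their ranks were 3835, 5687, 6228 and 7271.

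Markers of the myeloid cells across the membrane were set beside these results, since Ly6c1 and Ly6c2 are themselves expressed by such cells. Of 28 myeloid markers, 11 were at 0 in every Tu-Gr1+CD11b+-primed library, 11 in every Spl-Gr1+CD11b+-primed and 13 in every parental library, among them Ngp, Camp, Mpo, Elane, Tyrobp and Cd52 at 0 in all 12. Their summed level was 154 to 189 CPM, 135 to 153 and 128 to 133 in the 3 groups, most of it Mmp9, which had 3009 to 5242 counts throughout. The 5 defining markers summed to 1.67 to 3.92 CPM, 2.00 to 3.41 and 2.12 to 2.76, with overlapping ranges. S100a8 and Ltf, genes known from neutrophils, were at 38 to 62 counts in parental cells. They were higher in Tu-Gr1+CD11b+-primed than in Spl-Gr1+CD11b+-primed cells by 0.93 and 1.16 on the log2 scale (edgeR adjusted p = 0.027 and 0.00082), although the S100a8 ranges overlapped. S100a9, of the same list, had at most 1 count in any library. The other 2 tested myeloid markers, Cxcr2 and Mmp9, were not called between the primed groups, where 4.66% of all genes were called higher. Against parental cells 3 of the 4, S100a8, Ltf and Mmp9, passed the test as higher after priming with tumor-derived cells. Their median log2 fold change over the 4 was 0.49. In that comparison 4 of 7 epithelial markers were lower, and 31.2% of all genes were called higher and 28% lower. After priming with spleen-derived cells 0 of the 4 myeloid markers were called, while 3 of the 7 epithelial markers were lower and 1 was higher. The part of these markers in the Ly6 result was not tested.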

How the data were processed

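Per the labels, RNA was made into TruSeq Stranded libraries, and the submitters' processing notes name FastQC, Trimmomatic 0.39, Salmon 1.4.0 and the mouse build GRCm38 (mm10); the annotation release is not given in the sources used here. The deposited Salmon tables hold estimated counts and TPM for 117081 transcripts in each of 12 libraries, and the authors' normalized table holds scaled expression signal per gene. Deposited TPM served only for length offsets, since mt-Atp8-201, of 204 bases, alone took 45249 to 70520 of it in primed and 102349 to 149854 in parental libraries. Of the transcripts, 116021 were in GENCODE M21; the others held 0.326% to 0.419% of reads and were left out.

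Estimated counts were summed per gene, rounded, filtered with filterByExpr, scaled by TMM (factors 0.880 to 1.05) and tested with edgeR 4.0.16 (glmQLFit, glmQLFTest) in 1 fit of the 12 libraries by group, with Benjamini-Hochberg adjustment over all genes or transcripts tested and a threshold of 0.05. Fits were checked on simulated data. SE was taken from the log2 fold change and the square root of F. Single values were compared with exact permutation tests (scipy 1.17.1), adjusted over 21 tests. Counting intervals are exact binomial at 95%. Alternatives used RLE or upper-quartile scaling, other filters, limma 3.58.1, DESeq2 1.42.0 with and without length offsets, the authors' normalized table (log2 of value + 1), protein-coding transcripts, 8 libraries, a replicate block, a threshold of 0.01, and each library left out. Alignments used Biopython 1.88.

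Members, family list, neighbors and markers were chosen with earlier results of these data known. Named were all members and their transcripts, relatives called in any comparison, neighbors within 100000 bases called between the primed groups, and the 5 genes closest to Ly6a by Pearson r (prior count 2). Of 36 relatives 35 were matched; Ly6s was not analysed here. Libraries of a group differed by more than counting noise in every pair (chi-square over its degrees of freedom 3.50 or more).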

Additional observations from a re-analysis of the deposited data

Results flagged for a closer look

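Of 30 groups of 4 libraries examined for the members and their tested relatives, 4 held a library far from the other 3 by Dixon's ratio, where chance marks about 1 in 20. Ly6c2 stood at 0.278 CPM in Tu-Gr1+CD11b+-primed replicate 4, below 0.532 to 0.583 in the other 3 libraries of that group. Ly6c2 stood at 0.188 CPM in Spl-Gr1+CD11b+-primed replicate 1, above 0.0696 to 0.0726 in the others, which is 6 counts against 2 in each. Ly6c1 was at 0.200 CPM in parental replicate 4, below 0.377 to 0.412. Ly6a was at 1.25 CPM in Spl-Gr1+CD11b+-primed replicate 4, below 1.31 to 1.32, a gap that is small beside every difference between groups.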

How the results depend on the processing

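The count of members called higher in Tu-Gr1+CD11b+-primed cells stayed within 2 to 4 in each comparison over all 24 alternatives (3 as reported); it was 2 where 10 counts were asked of every library, which left only Ly6a and Ly6e to test, and 4 where Ly6c2 passed the filter, as without a filter or in the authors' normalized table. Leaving out single libraries gave 3 to 4 in both. Between Spl-Gr1+CD11b+-primed and parental cells 0 members became 2 in the fit of 8 libraries, and 0 to 1 when single libraries were left out. The Ly6c2 ratio between these groups turned from 0.76 to -0.13 on the log2 scale in the normalized table.

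Member transcripts called between the primed groups fell from 1 to 0 with limma-voom, with 8 libraries, with the replicate block and at 0.01, and ran from 0 to 1 over left-out libraries. Against parental cells, Tu-Gr1+CD11b+-primed transcripts called fell from 2 to 1 with 10 counts in every library, limma-voom, 8 libraries and at 0.01, and ran from 2 to 3 over left-out libraries. Between Spl-Gr1+CD11b+-primed and parental cells they rose from 0 to 1 with the replicate block and ran from 0 to 1 over left-out libraries. Why these counts moved was not tested.

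Same-numbered libraries correlated at -0.16 to 0.15 in their deviations, which cannot tell whether they share more than a number. The replicate block left the members called at 3, 3 and 0. Over all genes, 958 calls between the primed groups became 525 to 564 without Tu-Gr1+CD11b+-primed replicate 1, 2 or 3, 422 in the normalized table and 445 at 0.01. Depth limits Ly6c2, Ly6g6c, Ly6d and Ly6k, which were near or under 3 counts in most libraries.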
